A study of Arabidopsis thaliana with 21 samples.

Results

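In imbibed seeds of Arabidopsis thaliana, 10 of 37336 genes were close to silent in dry seeds and in water up to 24 h and carried clear transcript levels after 24 h with ethylene. The genes were chosen by their measured levels. A gene had to average below 0.3 reads per 1000000 gene reads (CPM) in dry seeds and in water at 6, 16 and 24 h, at least 5 CPM with ethylene at 24 h and below 3 CPM with ethylene at 6 h. An 11th gene that met these limits, the gibberellin-inactivating GA2OX3 (AT2G34555), was left out by name, with 2.84, 18.8 and 14.8 CPM at 6, 16 and 24 h of ethylene. Low levels in dry seeds and water and high levels with ethylene at 24 h are therefore how the genes were selected and not a result. The choice used sense-strand counts. The ethylene 16 h libraries, the opposite-strand counts, and the levels of relatives and neighbours of the genes were not used in it.

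All 21 libraries came from seeds labelled wild type, with no other allele. The 7 groups of 3 libraries were dry seeds, seeds imbibed in water for 6, 16 or 24 h, and seeds imbibed with ethylene for 6, 16 or 24 h. No dose of the gas is given in the labels, the water samples are labelled as untreated, and the replicates are described as biological. Whether separate seed lots were used is not stated, so a p-value here reflects sample-to-sample spread that may be technical. The seed storage genes CRA1 and OLEO1 stood at 21977 to 24335 and 12558 to 13134 CPM in the dry libraries, so these markers of the labelled tissue were abundant.

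The libraries held 11687098 to 21198649 reads on genes, and 1 read was worth 0.0472 to 0.0856 CPM. The library labelled ethylene 16 h replicate 2 stood apart. On the log2(CPM + 1) scale its correlation across genes was 0.997 to 0.998 with each library of water 16 h, but 0.894 to 0.899 with ethylene 16 h replicates 1 and 3. In it 9 of the 10 genes had no read and AT1G26290 had 1. Ethylene 16 h is given below from replicates 1 and 3, and the results with replicate 2 are given beside those that it changes.

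Ethylene is a gaseous hormone that promotes germination and counteracts dormancy and abscisic acid in Arabidopsis seeds. Binding of the gas turns off its receptors and the kinase that they activate, which lets the transcription factor EIN3 and its relatives accumulate and switch on target genes. Among the 10 genes, 3 carry a symbol in the reference table. AHP1 (AT3G21510) encodes a histidine phosphotransfer protein, which passes phosphate from cytokinin receptors to response regulators. SNRK2.7 (AT4G40010) encodes a kinase of the SnRK2 family, which acts in abscisic acid and osmotic stress signalling. UMAMIT11 (AT2G40900) encodes a membrane protein of a family of amino acid transporters. The table describes AT5G58750 and AT3G55290 as NAD(P)-binding Rossmann-fold proteins, AT2G44070 as a NagB/RpiA/CoA transferase-like protein and AT1G21320 as a nucleic acid or nucleotide binding protein. AT1G26290, AT5G44580 and AT3G47410 are annotated as uncharacterized proteins. All 10 are protein-coding, with 98 to 421 residues, and they lie on all 5 chromosomes with no 2 of them next to each other.

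The 250 bases before the annotated start of each gene were searched on both strands for short elements known from hormone response. ATGTAT, a form of the site that EIN3 binds, was present before 3 of the 10 genes and before 23.5% of 27443 protein-coding genes. CACGTG, the G-box of many stress and light responses, was present before 1 gene and 6.49% of all. TAACAAA, an element of gibberellin response, was present before AT5G44580 and before 16.1% of all. GCCGCC, the box bound by ethylene response factors, CATGCA, the core of a seed element, and the root hair element were found before none of the 10, against 1.87%, 8.43% and 0.754% of all genes. No motif overlapped another in these 10 windows. The 4 windows with ATGTAT or CACGTG are printed 5′ to 3′ on the strand of the gene, because they show how the elements are spaced. They were read from RefSeq's assembly TAIR10.1 after matching genes by locus identifier. Capitals mark the motif, or its reverse complement ATACAT. AT1G26290 (chr1:9097393-9097642, plus strand) holds ATGTAT 3 times, beginning at positions -133, -93 and -49 counted from the start, in a window of 20% G and C that lies inside the overlapping gene AT1G26300. AT2G44070 (chr2:18232631-18232880, minus strand) and AHP1 (chr3:7579790-7580039, minus strand) hold it once each, at positions -125 and -185. SNRK2.7 (chr4:18551184-18551433, minus strand) holds CACGTG at position -140, in a window that overlaps the unexpressed gene AT4G40011.
AT1G26290: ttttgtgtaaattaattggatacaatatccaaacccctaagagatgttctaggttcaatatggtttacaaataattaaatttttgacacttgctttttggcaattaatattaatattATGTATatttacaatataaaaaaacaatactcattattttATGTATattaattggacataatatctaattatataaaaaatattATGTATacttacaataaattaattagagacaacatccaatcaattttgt
AT2G44070: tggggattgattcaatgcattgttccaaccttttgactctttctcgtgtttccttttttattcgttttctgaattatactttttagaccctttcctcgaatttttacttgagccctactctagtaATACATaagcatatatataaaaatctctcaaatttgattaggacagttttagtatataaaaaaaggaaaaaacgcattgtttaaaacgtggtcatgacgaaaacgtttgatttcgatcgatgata
AHP1: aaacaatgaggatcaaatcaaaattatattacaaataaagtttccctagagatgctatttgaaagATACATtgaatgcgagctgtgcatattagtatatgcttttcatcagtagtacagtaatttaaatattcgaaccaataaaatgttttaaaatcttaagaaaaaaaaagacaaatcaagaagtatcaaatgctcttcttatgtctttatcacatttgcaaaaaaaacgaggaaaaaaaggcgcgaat
SNRK2.7: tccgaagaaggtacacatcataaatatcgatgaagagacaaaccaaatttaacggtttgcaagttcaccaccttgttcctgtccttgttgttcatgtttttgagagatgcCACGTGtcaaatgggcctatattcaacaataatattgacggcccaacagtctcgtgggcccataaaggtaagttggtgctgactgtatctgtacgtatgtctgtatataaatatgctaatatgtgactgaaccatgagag
The windows of the 10 genes held 20 to 41.2% G and C with a median of 29.8%, and the median of all genes was 31.2%.

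**Figure D1:**
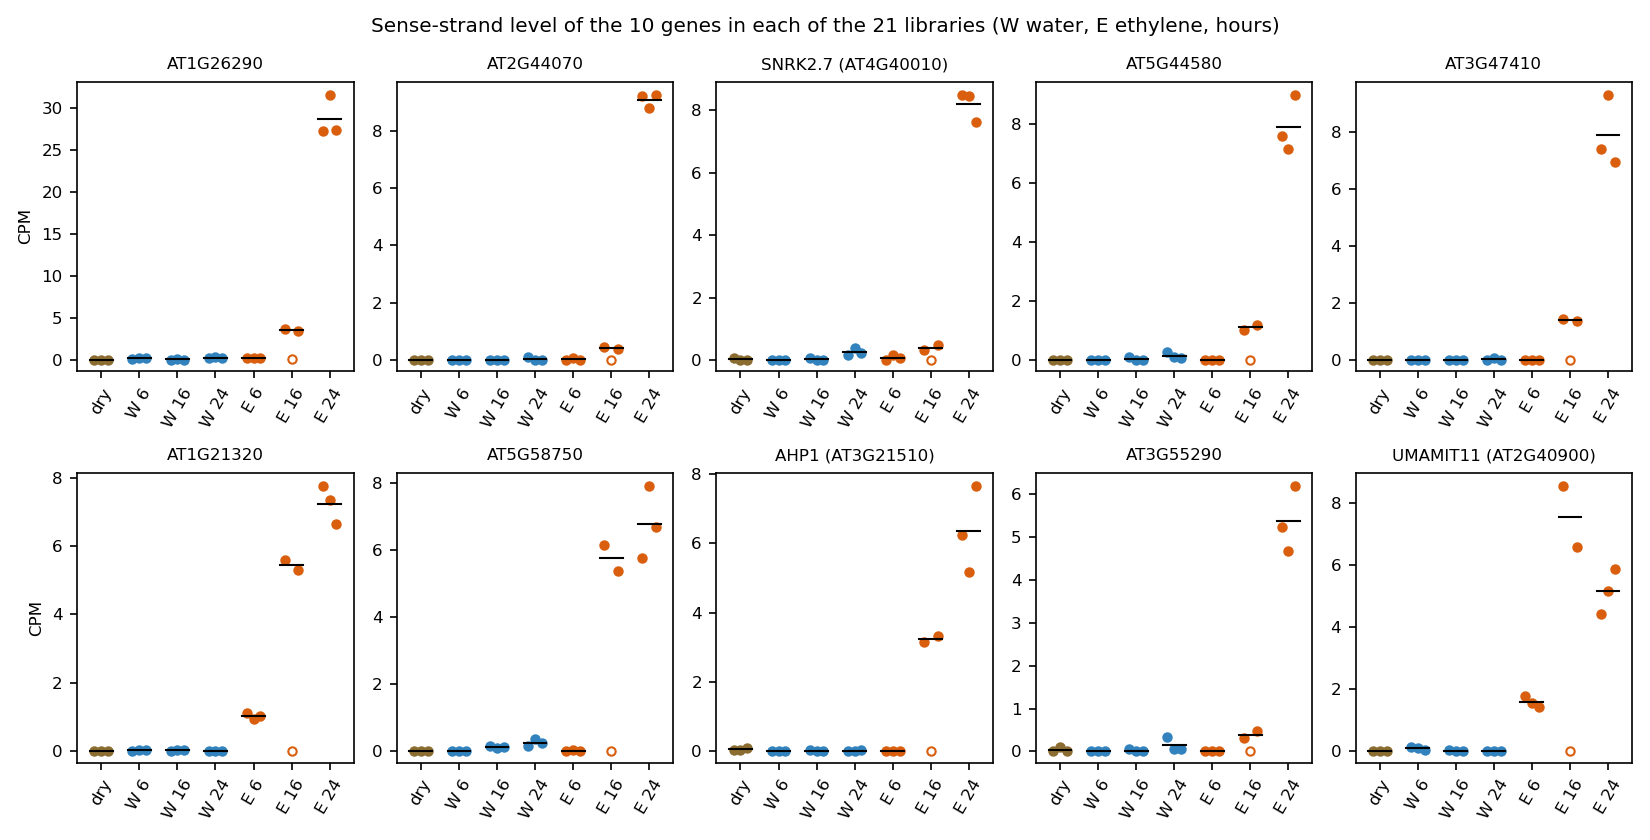
Sense-strand level (CPM, linear axis from about 0) of each of the 10 genes in every library, ordered by level at 24 h of ethylene. Points are libraries, bars are group means, and the open point is the library labelled ethylene 16 h replicate 2, which is left out of the mean; every ethylene 24 h library lies above every dry and water library, as the choice of the genes requires of the means.

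The signalling gene AHP1 was silent at 6 h of ethylene and came on by 16 h. It had no read in the 3 ethylene 6 h libraries, stood at 3.15 and 3.34 CPM in ethylene 16 h replicates 1 and 3, and at 6.23, 5.16 and 7.64 CPM in the ethylene 24 h libraries. Both ethylene 16 h libraries lay below all 3 of 24 h and above every dry and water library, which held 0 to 2 reads each. At 16 h this was 132 reads against 1 in water, or 190 times the CPM (95% counting interval 33.6 to 7580), and that 1 read lay in water 16 h replicate 1. Intervals of this kind cover counting error only. The choice held water at 16 h below 0.3 CPM, so this fold and its interval describe AHP1 and do not measure an unselected effect. From 16 to 24 h AHP1 gained 1.03 ± 0.20 (± SE) on the log2 scale. The 24 h level was used to choose the genes, which favours a rise. Tests from 16 to 24 h, here and for the genes below, are therefore description only. The change of AHP1 passed in the fit of 17 libraries. With the library labelled ethylene 16 h replicate 2 kept, the change was 1.59 ± 0.70 and did not pass.

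SNRK2.7 came on later. It had 0, 3 and 1 reads in the ethylene 6 h libraries, 0.305 and 0.477 CPM in ethylene 16 h replicates 1 and 3, and 8.50, 8.45 and 7.64 CPM at 24 h. The 16 h libraries overlapped the water 24 h libraries, which stood at 0.171, 0.367 and 0.206 CPM, while all 24 h libraries stood apart. The mean went from 0.391 ± 0.121 (SD, n = 2) CPM at 16 h to 8.20 ± 0.480 CPM (SD, n = 3) at 24 h.

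UMAMIT11, the transporter gene, had the highest CPM of the 10 genes at 6 h of ethylene and ran in another order. Its ethylene 6 h libraries already stood at 1.78, 1.57 and 1.43 CPM, against 0.152, 0.0978 and 0.0520 CPM in water at 6 h. At 16 h it was at 8.54 and 6.58 CPM and at 24 h at 4.44, 5.16 and 5.88 CPM. Both 16 h libraries thus lay above all 3 of 24 h, and no other of the 10 genes had that order. The log2 change from 16 to 24 h was -0.48 ± 0.16. It passed in the fit of 17 libraries, did not pass with DESeq2 (-0.46) or without ethylene 16 h replicate 1 (-0.29) or ethylene 24 h replicate 1 (-0.37), and was 0.09 with the library labelled ethylene 16 h replicate 2 kept. No read of UMAMIT11 was counted in water at 24 h.

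AT5G58750 and AT3G55290 shared the Rossmann-fold annotation and differed in time course. AT5G58750 had 1 read over the 3 ethylene 6 h libraries, then 6.15 and 5.39 CPM at 16 h and 5.76, 7.92 and 6.69 CPM at 24 h. The 16 h and 24 h libraries overlapped, and the log2 change between them, 0.30 ± 0.16, did not pass the test, except without ethylene 24 h replicate 1 (0.42). AT3G55290 had no read at 6 h of ethylene, 6 and 10 reads or 0.305 and 0.477 CPM at 16 h, and 5.24, 4.68 and 6.18 CPM at 24 h. Its 16 h libraries overlapped water 24 h, where replicate 1 stood at 0.342 CPM and the others at 0.0524 and 0.0516 CPM.

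AT2G44070, the transferase-like gene, was off until late and varied least at 24 h. It had 1 read over 12 dry and water libraries and 1 over the 3 ethylene 6 h libraries. It stood at 0.458 and 0.382 CPM in ethylene 16 h replicates 1 and 3 and at 9.21, 8.78 and 9.25 CPM at 24 h, where the coefficient of variation was 2.84%. Between these times its CPM increased 21.6-fold, close to the 21.0-fold of SNRK2.7 and ahead of the other 8 genes.

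AT1G21320, the nucleic acid binding protein gene, was on in part at 6 h. Its libraries stood at 1.13, 0.945 and 1.03 CPM at 6 h of ethylene, 5.59 and 5.29 CPM at 16 h, and 7.74, 7.34 and 6.64 CPM at 24 h. These 3 times did not overlap, and water held 0 to 1 read per library. From 16 to 24 h the log2 change of 0.48 ± 0.15 passed the test, but not without ethylene 16 h replicate 3 (0.44) or with the library labelled ethylene 16 h replicate 2 kept (1.05).

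Among the uncharacterized genes AT1G26290 reached the highest level. It stood at 0.215, 0.210 and 0.197 CPM at 6 h of ethylene, where water held 0.0762 to 0.260 CPM, at 3.71 and 3.39 CPM at 16 h and at 27.2, 31.6 and 27.4 CPM at 24 h. At 6 h the groups overlapped, with 12 reads against 10, and at 16 h they did not, with 144 reads against 3. It is also the gene with the most reads in the dry and water libraries, 26 in all, with up to 6 in one library.

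AT5G44580 and AT3G47410 followed much the same course. AT5G44580 had no read at 6 h of ethylene, 1.02 and 1.19 CPM at 16 h and 7.60, 7.14 and 9.0 CPM at 24 h. AT3G47410 had none at 6 h, 1.42 and 1.38 CPM at 16 h and 7.41, 9.32 and 6.94 CPM at 24 h. In both, every 16 h library lay between the water libraries and the 24 h libraries.

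Per kilobase of exon at 24 h of ethylene, AT1G26290 stood at 23.1 ± 1.98 CPM per kb (SD, n = 3), above the 9.80 ± 1.56 of AT3G47410 and the 9.38 ± 1.15 of AT5G44580, which did not differ beyond their spread. AT2G44070 followed at 6.51 ± 0.185 and SNRK2.7 at 5.69 ± 0.334 CPM per kb. Next came AT3G55290, AHP1 and AT5G58750 at 4.51 ± 0.638, 4.42 ± 0.865 and 4.37 ± 0.695 CPM per kb, with overlapping spreads. UMAMIT11 and AT1G21320 were lowest, at 2.90 ± 0.405 and 2.66 ± 0.206 CPM per kb. All 10 genes together held 92.7 CPM at 24 h of ethylene, 29.3 at 16 h and 2.94 at 6 h, and 1.12 in water at 24 h. In whole seeds a gene transcribed in few cells and one with little RNA in each cell cannot be told apart.

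**Figure D2:**
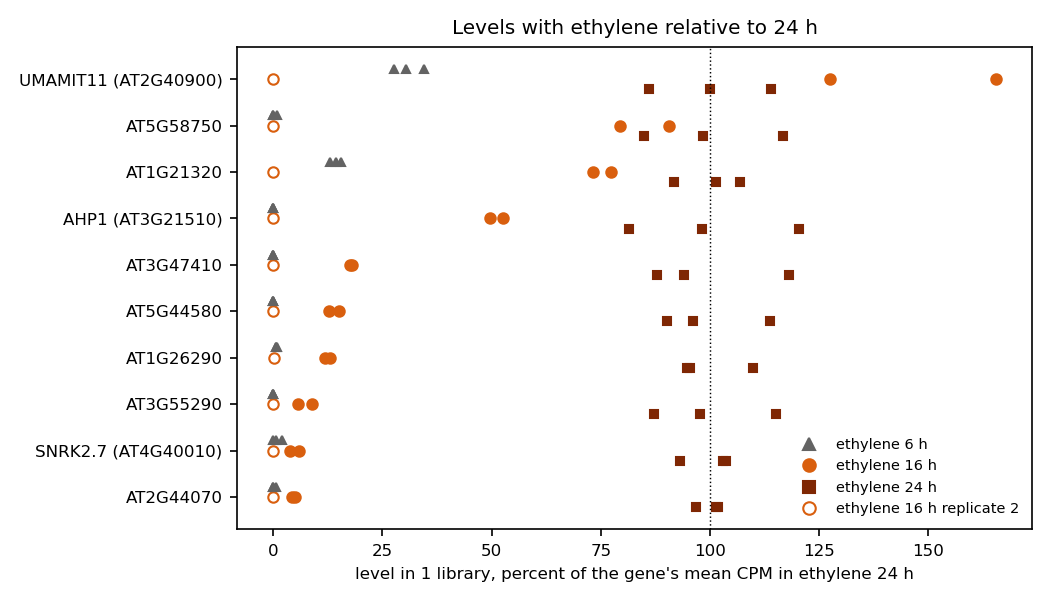
Level in each ethylene library as a percent of the gene's mean CPM in ethylene 24 h (dotted line at 100%), for libraries of 6 h (triangles), 16 h (circles, open for the library labelled replicate 2) and 24 h (squares). The circles spread from 4.62% as a mean for AT2G44070 to 146% for UMAMIT11, and only UMAMIT11 and AT1G21320 have triangles clearly off 0.

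The genes thus spread over time within the ethylene series. The mean level at 16 h was 4.62 to 146% of that at 24 h, with a median of 15.9%, whereas the median over all 14038 genes with at least 5 CPM at 24 h of ethylene was 104%. Since the genes had to be high at 24 h and low at 6 h, this median describes them and is no sign of a particular course. With the library labelled ethylene 16 h replicate 2 in the mean it was 10.6%. At 16 h 7 genes stood at 1 CPM or more, and SNRK2.7, AT3G55290 and AT2G44070 stood below. In 8 genes both 16 h libraries lay above every dry and water library, with SNRK2.7 and AT3G55290 as the exceptions. At 6 h UMAMIT11 and AT1G21320 alone lay above all water 6 h libraries.

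In edgeR's quasi-likelihood test on 17 imbibed libraries and 19091 genes, 10 of 10 genes were called higher with ethylene than in water at 16 h, beside 42.0% of all genes higher and 32.7% lower. Water at 16 h was used to choose the genes, so nothing is read from that count. A fit on the compared groups alone called 7, because AT2G44070, SNRK2.7 and AT3G55290 fell below its filter on low counts. From 16 to 24 h of ethylene 8 genes were called higher and 1 lower, beside 36.4% of all genes higher and 32.5% lower, and the 24 h side of this comparison was likewise used in the choice. The TMM factors of the ethylene libraries averaged higher than those of water, by 0.181 (log2) at 16 h, 0.113 at 24 h and 0.0121 at 6 h. This scaling lowers log2 changes of ethylene against water in the fit by about that much, compared with scaling to library totals. For AHP1, near 0 in water, the gap at 16 h was wider. Its fold was 122 in the fit against 190 from library totals.

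The limits of the choice cut through a continuum. Of 14038 genes with at least 5 CPM at 24 h of ethylene, 1386 lay below 0.3 CPM in dry seeds, 605 in water at 6 h, 277 in water at 16 h and 11 in water at 24 h. Just inside the ethylene limit were UMAMIT11 (5.16 CPM), AT3G55290 (5.37) and AHP1 (6.35), and just outside were the auxin-conjugating enzyme gene GH3.3 (4.97 CPM), AT4G29310 (4.73) and PYD4 (4.42). Just inside the 0.3 CPM limit were AT5G58750 (0.265 CPM), AT1G26290 (0.259) and SNRK2.7 (0.248), and just outside were AT1G29660 (0.346 CPM), sks9 (0.385) and AT5G51310 (0.401). Under the 3 CPM limit at 6 h of ethylene the nearest were UMAMIT11 (1.59 CPM), AT1G21320 (1.04) and AT1G26290 (0.207), and no gene was dropped by that limit. With TMM-scaled CPM the same limits gave 7 genes, without AHP1, AT3G55290 and UMAMIT11. Without ethylene 24 h replicate 3 they lost AT3G55290 and UMAMIT11, and without water 24 h replicate 1 they lost AT5G58750.

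Close relatives of the 10 proteins were looked up to see how the rest of each family behaved. The relatives were chosen by protein similarity after the values of the 10 genes were known. Up to 5 best matches per protein gave 25 genes, of which 17 were expressed enough to test. At 24 h 10 of the 17 were called higher with ethylene and 5 lower, beside 50.1% of all genes higher and 34.1% lower, with a median log2 change of 0.45 beside 0.25 over all genes. At 16 h 9 were higher and 5 lower, with medians of 0.42 and 0.11. All adjusted p-values below are from edgeR's quasi-likelihood test of ethylene against water at 24 h, with Benjamini-Hochberg adjustment over all genes. Folds come from that TMM-scaled fit and CPM from library totals, so a fold differs somewhat from the ratio of the 2 CPM beside it.

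In the family of AHP1, every relative but one was already expressed without ethylene. AHP2 rose from 19.4 ± 2.4 to 59.2 ± 0.544 CPM (SD, n = 3 per group; 2.85-fold, edgeR adjusted p = 1.93e-17) and AHP3 from 10.8 ± 1.14 to 28.4 ± 1.25 CPM (2.45-fold, edgeR adjusted p = 4.70e-15). Both act, like AHP1, as positive carriers of the cytokinin signal. HP6, a pseudo-phosphotransfer protein that dampens that signal, rose from 1.05 ± 0.0662 to 3.12 ± 0.454 CPM (2.76-fold, edgeR adjusted p = 1.49e-05). AHP5 fell from 9.83 ± 0.388 to 8.16 ± 0.772 CPM (1.3-fold lower, edgeR adjusted p = 0.00532). AHP4 had no read in water and 0.0969 CPM with ethylene at 24 h, and was too low to test.

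Among the kinases nearest to SNRK2.7, SNRK2.5 rose from 15.2 ± 2.3 to 95.6 ± 2.53 CPM (5.81-fold, edgeR adjusted p = 1.80e-23). OST1, a kinase of stomatal closure under abscisic acid, rose from 6.48 ± 0.521 to 30.8 ± 0.710 CPM (4.44-fold, edgeR adjusted p = 4.52e-19), and SNRK2-8 rose 1.91-fold. SNRK2.10 fell from 73.6 ± 1.02 to 59.1 ± 1.58 CPM, 1.35-fold lower. SNRK2.3, a core abscisic acid kinase, stood at 107 ± 1.56 against 90.5 ± 3.76 CPM. It was called 1.1-fold higher in the fit of 17 libraries, was not called with RLE size factors, and lay on the other side of 0 in a fit on the compared groups alone (log2 change -0.09, not called). SNRK2.7 was the only one of these 6 kinases below 0.3 CPM in dry seeds and in water throughout, as its choice required.

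The transporters nearest to UMAMIT11 moved both ways. UMAMIT12 rose from 5.02 ± 0.609 to 23.2 ± 1.35 CPM (4.21-fold, edgeR adjusted p = 2.01e-15). UMAMIT10, which shares 72.7% of residues with UMAMIT11, rose from 0.122 ± 0.169 to 0.852 ± 0.302 CPM (5.48-fold, log2 change 2.45, edgeR adjusted p = 0.000763). At so low a level the size rests on single libraries: without water 24 h replicate 2 the log2 change was 4.37, and without ethylene 24 h replicate 1 or 2, in the compared groups alone or with all 18 libraries the gene fell below the filter. SIAR1, a transporter of amino acids, fell from 20.2 ± 1.89 to 4.83 ± 0.381 CPM (4.54-fold lower, edgeR adjusted p = 8.29e-15). UMAMIT9 and UMAMIT19 were at or near 0 in all groups.

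**Figure D3:**
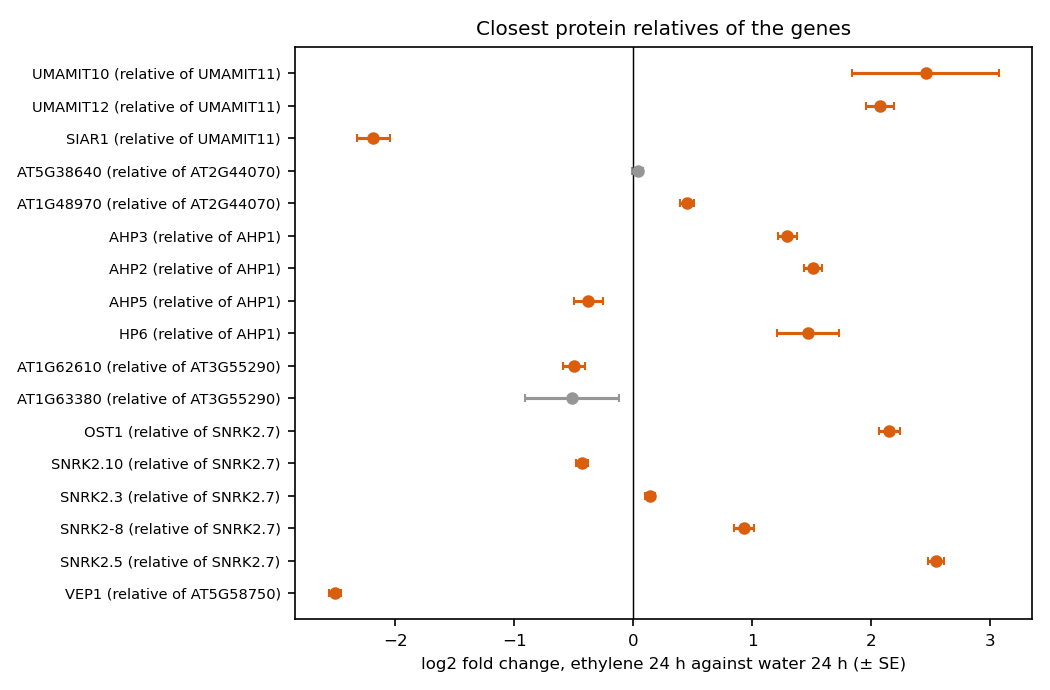
Log2 fold change of ethylene 24 h against water 24 h (± SE, edgeR, 17 libraries in the fit) for the 17 tested relatives, grouped by the gene they resemble. Orange points passed the test at an adjusted p of 0.05 and grey points did not; 10 lie to the right of 0 and were called, 5 to the left and were called, and the groups of AHP1, SNRK2.7 and UMAMIT11 each hold both directions.

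For AT2G44070 and AT3G55290, closely similar genes bear on the counts themselves. The protein of AT2G44070 (333 residues) aligned to that of AT5G38640 (642 residues) with 91.1% identity over 326 residues. Their coding sequences aligned with 92.9% over 978 bases. AT5G38640 stood at 53.3 ± 2.04 CPM in water and 59.2 ± 1.12 CPM with ethylene at 24 h, a log2 change of 0.04 ± 0.05 that did not pass (edgeR adjusted p = 0.495). Its sign depended on the scaling: the change was -0.0075 with DESeq2 and -0.0074 with RLE size factors, neither called, and -0.20 in a fit on the compared groups alone, which called it lower (edgeR adjusted p = 0.00219). AT3G55290 and AT3G55310 shared 94.3% of residues and 96.6% of coding bases, and AT3G55310 stood at 0.0285 CPM in water and 0.0657 CPM with ethylene at 24 h. Reads that fit both copies of such a pair could have been left uncounted, so the levels of AT2G44070 and AT3G55290 are uncertain to that extent. AT1G62610, another relative of AT3G55290, fell from 18.6 ± 2.3 to 14.1 ± 0.784 CPM (1.41-fold lower, edgeR adjusted p = 1.28e-05). VEP1, the one relative found for AT5G58750 at 36.3% identity and a gene of vein patterning, fell from 916 ± 4.51 to 174 ± 8.03 CPM (5.69-fold lower, edgeR adjusted p = 2.48e-26). No relative was found for AT1G26290 or AT1G21320.

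Neighbouring genes were compared because overlapping transcripts can exchange reads. AT1G26290 lies with all 1322 bases of its span inside AT1G26300, a BSD domain protein gene on the opposite strand. AT1G26300 rose from 10.6 ± 0.426 to 27.0 ± 1.16 CPM at 24 h (2.36-fold, edgeR adjusted p = 1.84e-13), while AT1G26290 went from 0.259 ± 0.0542 to 28.7 ± 2.47 CPM. In the counts taken on either strand AT1G26290 was listed at 0 in every group, so its level rests on the strand-specific counts. AT2G44070 overlaps AT2G44065, a ribosomal protein L2 family gene on the opposite strand, by 543 bases. That gene stood at 80.6 ± 2.05 against 68.1 ± 4.20 CPM at 24 h, a log2 change of 0.13 ± 0.05 that was -0.10 in the compared groups alone and was not called there. ARL, a relative of the organ growth regulator ARGOS and 4158 bases from AT2G44070, rose from 15.6 ± 2.37 to 169 ± 39.4 CPM (10.2-fold, edgeR adjusted p = 7.25e-20). AT3G47400, an invertase or pectin methylesterase inhibitor family gene 594 bases from AT3G47410, rose from 0.253 ± 0.0941 to 3.55 ± 0.781 CPM (13.4-fold, edgeR adjusted p = 2.04e-09). It was close to off in dry seeds and in water, like AT3G47410, and did not reach the 5 CPM limit. The neighbours of AT5G44580 and UMAMIT11 stayed below 0.3 CPM in every group. Other neighbours moved both ways at 24 h. AT4G40000, next to SNRK2.7, rose 1.91-fold, and RPL23AB, next to AT3G55290, rose 2.22-fold. Of the genes beside AT5G58750, DDB2 fell 1.92-fold (edgeR adjusted p = 1.29e-11) and AT5G58740 was not called (log2 change -0.10). These changes stand beside 50.1% of all genes called higher and 34.1% lower at 24 h.

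Strand-specific counts also gave a measure that the choice did not use. Over 4841 genes with no overlapping gene, a median of 0.197% of reads lay in the orientation opposite to the gene. The 95th percentile was 1.21%. Only genes with far more sense reads than any of the 10 were included, so these values are no norm at the level of the 10. At 24 h of ethylene 7 of the 10 genes were at 0 to 0.977%. AT5G58750 stood at 5.42%, AT1G26290, whose locus AT1G26300 shares, at 11.3%, and AT1G21320 at 29.2% although no gene is annotated opposite to it. The opposite-strand reads of AT1G21320 followed ethylene too. With ethylene they numbered 112 at 6 h, 119 at 16 h and 185 at 24 h, and in water 8, 1 and 1. As CPM the ethylene libraries ranged from 1.72 to 2.16 at 6 h, 2.81 to 3.05 at 16 h and 2.72 to 3.28 at 24 h, and no water library exceeded 0.228. The groups did not overlap at any time. The exact 2-sided permutation test gave p = 0.1 at 6 h and at 24 h, the smallest that 3 against 3 libraries allow, and p = 0.2 at 16 h, the smallest for 2 against 3. At 6 h of ethylene 65.1% of the reads at this locus lay on the opposite strand, and in water at 6 h 8 of 10 reads did.

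**Figure D4:**
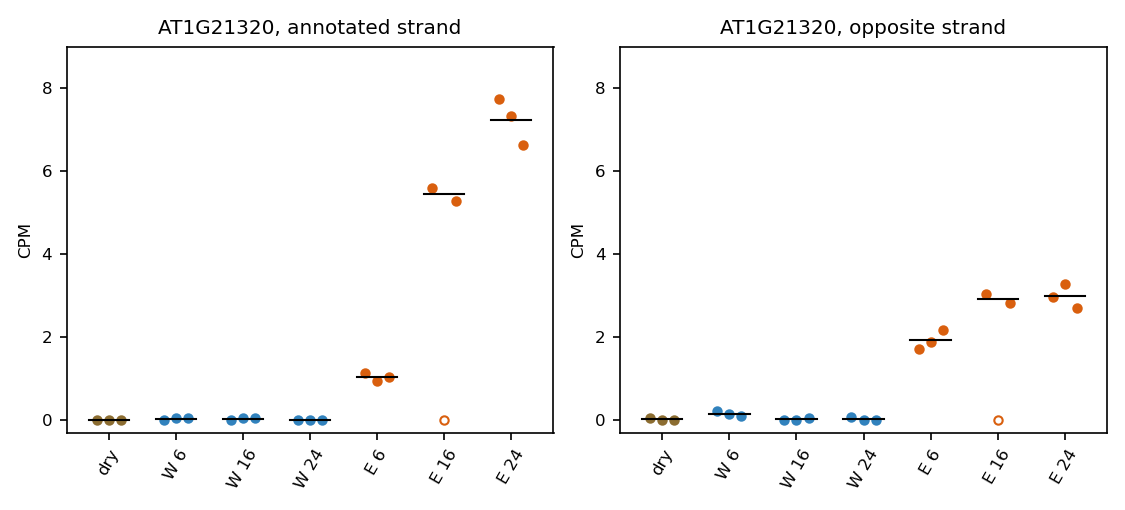
Level of AT1G21320 in CPM in each library, on the annotated strand (left) and on the opposite strand (right), on the same linear axis. Points are libraries, bars group means, and the open point is the library labelled ethylene 16 h replicate 2; the opposite strand reached 1.93 CPM at 6 h of ethylene, above the 1.04 CPM of the annotated strand, and 2.99 CPM at 24 h.

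None of the 10 genes was in 15 lists of hormone response, cell type and tissue genes, of which 358 symbols were found in the files. With 358 symbols beside 37336 genes in the files, nothing is read from that absence. The lists were matched by symbol alone, so a shared symbol can bring in a gene other than the one meant. The matches of ACR4 to AT1G69040, CIF1 to AT4G29900, DER1 to AT4G29330 and PEN1 to AT4G15340 may be of this kind. The list of ethylene response genes gives the setting. Of its 26 tested members, 21 were called higher and 4 lower at 16 h, beside 42.0% and 32.7% of all genes, with a median log2 change of 2.17 beside 0.11. At 24 h 18 were higher and 5 lower, beside 50.1% and 34.1% of all genes, with a median of 1.34 beside 0.25. The lists of cell types and tissues are read against the same shares at 24 h, and their part in the levels of the 10 genes was not tested. Counts called higher and lower were 16 and 1 of 19 root hair genes, 14 and 2 of 18 xylem and secondary wall genes, 9 and 0 of 10 non-hair epidermis genes and 8 and 2 of 11 endosperm genes. They were 11 and 2 of 18 for phloem, 9 and 3 of 17 for the stomatal lineage, 5 and 2 of 8 for seed coat, 0 and 3 of 5 for pollen, 9 and 6 of 17 for root meristem and lateral root, and 6 and 1 of 9 for Casparian strip and endodermis. The remaining lists gave 3 and 1 of 4 suberin genes, 2 and 0 of 2 root cap genes, 10 and 8 of 20 nutrient uptake genes and 6 and 7 of 13 jasmonate, salicylate and defence genes. By product name 1 of the 10 genes was among 1388 protein kinase genes, 1 among 833 transporter genes outside the other families and 3 among 7929 genes of no described function. Nothing is read from these counts either.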

How the data were processed

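RNA of 21 wild-type seed libraries was measured as stranded, single-end polyA reads, per the labels' protocols. The deposited files hold raw counts per gene for 37336 genes, which the authors made by aligning and counting with STAR on TAIR10, per the submitters' processing notes. The version, annotation release and trimming are not given in the sources used here. Each file gives counts on either strand, forward and reverse, per the file headers. The kit puts sense reads in the reverse column, which was analysed. Forward counts, 2.72 to 5.41% of gene reads, served as a strand check. Summary lines were left out.

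CPM were reverse counts per 1000000 gene reads. Groups came from the sample titles. The 10 genes and all lists were chosen with earlier results of these data known. The rule for naming genes took the highest at 24 h and those nearest each limit, which covers all 10. Relatives, neighbours and other named genes were added after their values were seen.

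Tests used edgeR 4.0.16 (R 4.3.3): quasi-likelihood F test, 2-sided, TMM, default filter (minimum count 10, total 15), Benjamini-Hochberg adjustment over all genes, FDR 0.05. The fit held 17 imbibed libraries and left out ethylene 16 h replicate 2. The script was tested on simulated data. SE were approximated as the log2 fold change over the square root of F. Alternatives were DESeq2 1.42.0, RLE size factors, other filters, strands, limits and libraries. Ratios against 1 to 14 reads carry exact 95% counting intervals. Relatives were BLAST+ 2.17.0 protein matches (E below 1e-10, at least 70% of the length) in RefSeq TAIR10.1, whose locus identifiers matched 37051 genes. That build differs in name from the authors', so its coordinates are given only for the printed windows, gaps and overlaps. Permutation tests used SciPy 1.17.1.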

Additional observations from a re-analysis of the deposited data

Results flagged for a closer look

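AT1G21320 carried reads in the orientation opposite to the gene, a column that the comparisons of levels do not use. They averaged 2.99 CPM with ethylene at 24 h against 0.0285 CPM in water at 24 h, 2.93 against 0.0157 CPM at 16 h and 1.93 against 0.160 CPM at 6 h. The library labelled ethylene 16 h replicate 2, left out of the 16 h mean, had none. This signal was picked out after the values were seen.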

How the results depend on the processing

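The choice of genes depended on its limits: with dry and water below 0.5 CPM 23 genes met it, with at least 3 CPM at 24 h of ethylene 38, and with at least 10 CPM 1 (AT1G26290). Counts on either strand also gave 10, of which 7 were shared, without AT1G26290, AT1G21320 and AT5G58750, and leaving out 1 library gave 9 to 12. The median level at 16 h as a percent of 24 h was 16.6 with TMM-scaled CPM, 17.7 on either strand and 10.6 with the library labelled ethylene 16 h replicate 2, and 15.5 to 16.4 without 1 library, against 15.9. At 16 h 10 genes were called under the alternatives run, except 9 on either strand, where AT1G26290 was at 0, and 7 in the compared groups alone, where the other 3 were filtered out. From 16 to 24 h 8 were called higher, except 6 with all 18 libraries, 7 on either strand and 7 to 9 without 1 library. UMAMIT11 reversed from 16 to 24 h with all 18 libraries (log2 change 0.0913), as did SNRK2.3 (-0.0947), AT2G44065 (-0.0993) and AT5G38640 (-0.197, called) at 24 h in the compared groups alone, and AT5G38640 with DESeq2 (-0.00752) and RLE size factors (-0.00744); the cause was not tested. Of the relatives 14 to 16 were called at 24 h under alternatives chosen after seeing the data, against 15. Over single-gene alternatives of the 10 genes, relatives and neighbours 507 kept direction and call, 12 lost the call, 5 gained it and 6 changed sign, of which 1 also gained a call and 3 lost it. The replicate numbers gave no sign of pairing, with correlations of -0.05 to 0.03 between same-numbered libraries. This covered replicates 1 and 3 only and cannot show that the samples were unpaired. The replicate block left the counts at 10, 8 and 15. Depth limits the low side: 1 read was worth up to 0.0856 CPM, so a level near 0.3 CPM rests on a few reads per library.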

Other observations

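With the dry and water limits kept, 6 genes reached 5 CPM at 16 h of ethylene when no limit was set at 6 h, and 3 of them were not among the 10: GA2OX3, AT2G41225 and AT5G14940. AT5G14940, a major facilitator superfamily transporter gene, averaged 0.765, 7.05 and 1.91 CPM at 6, 16 and 24 h of ethylene, and AT2G41225, an uncharacterized gene, 4.32, 5.90 and 2.98 CPM. Both lay below 0.15 CPM in dry seeds and in every water group. Their lower level at 24 h than at 16 h follows from how they were picked, since they had to reach 5 CPM at 16 h and were not among the genes that did so at 24 h. These genes were picked out after their values were seen, and no test was run on them.

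The opposite pattern, off in dry seeds and with ethylene and at least 5 CPM in water at 24 h, was met by 2 genes, the light-harvesting genes CAB2 and LHB1B1. Their means rested on 1 library: CAB2 stood at 0, 0.734 and 124 CPM and LHB1B1 at 0, 0.734 and 29.7 CPM in water 24 h replicates 1, 2 and 3. Of 18339 genes below 0.3 CPM in dry seeds and in all water groups, 303 reached 1 CPM with ethylene at 24 h. Among genes off in dry seeds and with ethylene, whose total was not counted, 13 reached 1 CPM in water at 24 h. Without that total these counts cannot be compared as shares. Whether they rest on single libraries was not checked.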
